A study of Homo sapiens with 8 samples.

Results

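The genes described here are 9 transcription factors that commit progenitors to a neuronal fate or act early in the differentiation of young neurons: NEUROG1, NEUROG2, NEUROD1, NEUROD2, NEUROD6, NHLH1, NHLH2, INSM1 and MYT1L. They were taken from the deposited gene table by symbol, which found all 9 among 58395 genes. The cells were iCell DopaNeurons, a commercial preparation of human dopaminergic neurons grown out of induced pluripotent cells. Messenger RNA was sequenced after 4 days on coverslips coated with a GDNF mimic nanostructure (GDNF, 4 libraries) or on the comparator coating (CT, 4 libraries). CT is not spelled out in the labels and is read here as the scrambled nanostructure, the comparator named in the series design. No genotype or drug differs between the groups, and all 8 libraries carry the same treatment label of 10.73 mM. The series design speaks of 3 biological replicates per condition, whereas each group here had 4 numbered libraries, and the labels do not say whether these came from separate cultures. P-values therefore measure only the spread between these libraries, which may be technical.

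GDNF is the glial cell line-derived neurotrophic factor, a survival factor for midbrain dopaminergic neurons. Neurogenins and NeuroD proteins share a basic helix-loop-helix (bHLH) fold and bind the short DNA motif called the E-box, spelled CANNTG, as dimers with E proteins. Neurogenins act in dividing progenitors, NeuroD and NHLH factors follow as cells leave the cycle, and the zinc finger proteins INSM1 and MYT1L act in newborn and in maturing neurons. In mouse, Neurog2 is needed for the normal birth of midbrain dopaminergic neurons.

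The promoters of 8 of the 9 genes, all but INSM1, were found in RefSeq (GRCh38.p14), and the one nearest to the start of the gene in the deposited table was taken where several were listed. They are shown for their E-boxes, the sites that the bHLH factors recognise, and the 3 printed here, of a neurogenin, an NHLH factor and MYT1L, hold 0, 1 and 2 of them. The window is the 250 bases before the RefSeq start. Only the stretch outside the gene as the deposited table places it is printed, 5′ to 3′ on the strand of the gene, with each CANNTG in capitals. The motif reads the same on both strands.
NEUROG2, chr4:112516181-112516430, minus strand: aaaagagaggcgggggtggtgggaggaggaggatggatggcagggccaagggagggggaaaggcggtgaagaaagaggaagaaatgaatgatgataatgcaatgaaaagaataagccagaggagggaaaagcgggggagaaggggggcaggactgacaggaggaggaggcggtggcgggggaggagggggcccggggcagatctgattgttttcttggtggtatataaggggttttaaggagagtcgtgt
NHLH1, chr1:160366821-160367066, plus strand: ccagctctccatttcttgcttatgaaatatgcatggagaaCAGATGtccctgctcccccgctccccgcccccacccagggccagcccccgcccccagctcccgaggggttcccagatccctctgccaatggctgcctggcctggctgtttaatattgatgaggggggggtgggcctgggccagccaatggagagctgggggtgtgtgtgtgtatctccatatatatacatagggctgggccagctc
MYT1L, chr2:2331349-2331525, minus strand: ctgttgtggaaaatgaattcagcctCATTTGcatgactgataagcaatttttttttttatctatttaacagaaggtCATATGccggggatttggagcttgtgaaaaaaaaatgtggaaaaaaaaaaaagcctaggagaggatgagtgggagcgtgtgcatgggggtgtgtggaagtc
Over the full 250 bases, the windows of NEUROG1, NEUROG2 and NEUROD1 held no E-box, that of NHLH1 held 1, that of NHLH2 2, those of NEUROD2 and MYT1L 3 each, and that of NEUROD6 4. At least 1 E-box was thus found in 5 of 8 windows, where 61.8% of the 35116 promoter windows of RefSeq hold one. The variant CAGATG, or its reverse complement CATCTG, which is one of the CANNTG forms, was found in 4 of 8 (NEUROD2, NEUROD6, NHLH1 and NHLH2), where 12.2% of all windows hold it. The windows of NEUROD1, NEUROD2 and NHLH2 lay inside the gene as the deposited table places it. Their RefSeq starts were 359, 1857 and 2791 bases from the start of the gene. In NEUROD6 the 82 bases of the window outside the gene held 0 E-boxes. The CAGATG of NHLH1 lay outside its gene. These matches describe letters only.

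Total counts ranged from 29532090 to 34559240 in GDNF libraries and from 28698283 to 31692788 in CT libraries. Levels are CPM (counts scaled to a common library total), with totals adjusted by TMM, so that a count of 0 in a library allows up to 0.0856 to 0.104 CPM (3 counts, counting error only). Of markers of the labelled cell type, TH, the enzyme that makes the dopamine precursor, stood at 219 ± 40.3 CPM in GDNF and 220 ± 74.8 CPM in CT, and the midbrain dopaminergic factor NR4A2 121 ± 10.1 CPM in GDNF and 121 ± 14.4 CPM in CT. The dopamine transporter SLC6A3 was low, at 0.664 ± 0.285 CPM in GDNF and 0.431 ± 0.289 CPM in CT. These 3 were chosen after their values were seen. Astrocyte markers summed to 3.58 to 5.09 CPM in GDNF libraries and 3.72 to 6.01 CPM in CT libraries, against sums of at least 9124 CPM for the neuron maturation markers. In 6 of the 8 libraries the deviation from the mean of the other libraries followed the GC content of the gene, given here as a Spearman correlation across 11814 genes of at least 5 CPM. It was -0.813, -0.769, -0.00491 and 0.732 in GDNF replicates 1 to 4, and -0.799, 0.896, -0.00864 and -0.852 in CT replicates 1 to 4. GC-rich genes were thus relatively high in GDNF replicate 4 and CT replicate 2, and relatively low in GDNF replicates 1 and 2 and CT replicates 1 and 4.

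The 9 factors ranged from a mean of 102.9 CPM over the 8 libraries for MYT1L to no counts for NEUROG1. None passed the test between the 2 coatings. MYT1L was the most abundant by counts, NHLH2 and INSM1 followed, and NHLH1 was lower; NEUROD1, NEUROG2 and NEUROD2 averaged under 1 CPM, NEUROD6 had 3 counts in all and NEUROG1 had none. In edgeR's quasi-likelihood test 0 of 7 factors that passed the low-count filter were called, beside 0.0% of all 19999 genes tested (adjusted p under 0.05). At an unadjusted p under 0.05 the counts were 0 of 7 factors and 176 genes, or 0.88% of those tested. DESeq2 and limma-voom also called 0 genes, with 313 and 837 at an unadjusted p under 0.05. In these bulk samples, fewer cells of a type and less RNA per cell cannot be told apart.

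**Figure D1:**
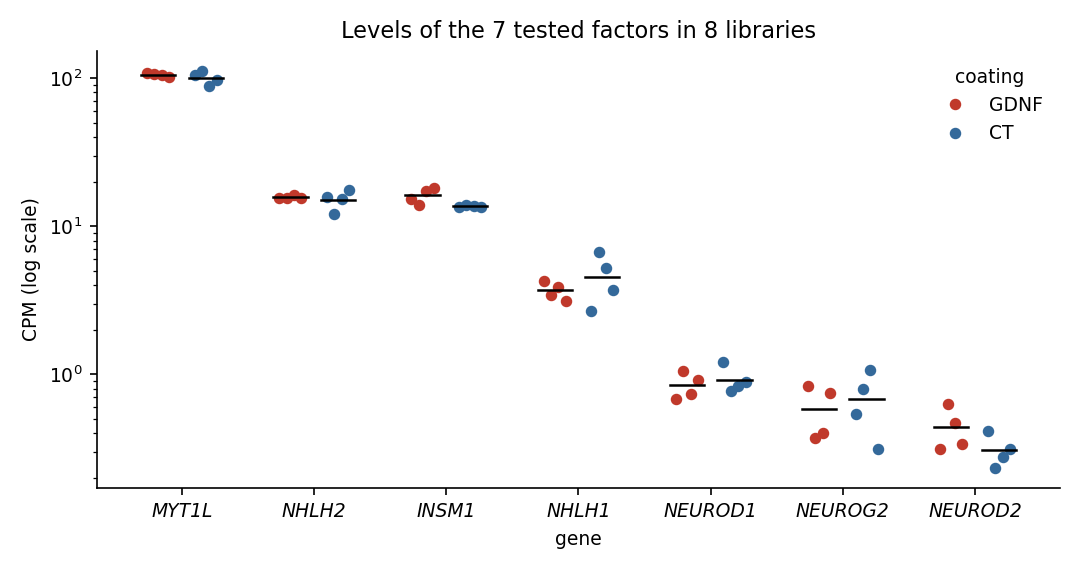
CPM (log scale) of the 7 factors that passed the low-count filter, with 1 point per library, GDNF left of CT for each gene and a bar at the group mean (n = 4 each). MYT1L lies near 100 CPM in every library, NEUROD1, NEUROG2 and NEUROD2 near or below 1 CPM, and the 2 groups overlap for every gene but INSM1; NEUROG1 and NEUROD6 are not drawn.

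The neurogenins, which start the neuronal programme, were absent or sparse. NEUROG1 (ENSG00000181965, chromosome 5, 135534282 to 135535949, GRCh38) had 0 counts in all 8 libraries. Pooled over each group, 0 counts allow up to 0.0232 CPM in GDNF and 0.0245 CPM in CT (3 counts per group). NEUROG2 (ENSG00000178403, chromosome 4, 112513516 to 112516172) had 29, 13, 12 and 22 counts in GDNF libraries, against 17, 24, 31 and 10 counts in CT libraries. Both the highest and the lowest value belonged to CT, replicates 3 and 4, and the groups overlapped. Its mean was 0.587 ± 0.233 CPM in GDNF and 0.681 ± 0.327 CPM in CT (SD, n = 4 each). The log2 fold change was -0.21 (95% confidence interval -1.13 to 0.72; edgeR adjusted p = 0.9999). The interval spans 0.456-fold to 1.65-fold. NEUROG2 shares 4.02% of its exonic bases with an antisense gene, AC023886.1, which had 36 counts over the 8 libraries, and the strand setting is not given in the sources used here.

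The NeuroD factors, which carry differentiation forward after the neurogenins, were also sparse. NEUROD1 (ENSG00000162992, chromosome 2, 181673088 to 181680876), which also acts in endocrine pancreas, had 24, 37, 22 and 27 counts in GDNF libraries, against 38, 23, 24 and 28 counts in CT libraries. The groups overlapped, with the highest value in CT replicate 1 and the lowest in GDNF replicate 1. The means were 0.849 ± 0.17 CPM in GDNF and 0.920 ± 0.195 CPM in CT, with a log2 fold change of -0.12 (-0.70 to 0.46, edgeR adjusted p = 0.9999). It shares 7.13% of its exonic bases with CERKL on the same strand, whose total was 58 counts over the 8 libraries. NEUROD2 (ENSG00000171532, chromosome 17, 39603536 to 39609777), a factor of cortical and other glutamatergic neurons, had 11, 22, 14 and 10 counts in GDNF libraries, against 13, 7, 8 and 10 counts in CT libraries. GDNF replicate 2 was the highest of the 8 and CT replicate 2 the lowest. NEUROD2 had the largest fold between group means among the 7 tested factors, 0.438 ± 0.145 CPM in GDNF and 0.309 ± 0.0762 CPM in CT. Its log2 fold change of 0.50 did not pass (-0.31 to 1.31, edgeR adjusted p = 0.9999), and without GDNF replicate 2 it was 0.27. NEUROD6 (ENSG00000164600, chromosome 7, 31337461 to 31340894), which marks some dopaminergic neurons of the ventral tegmental area in mouse and also cortical pyramidal neurons, had 0 counts in all 4 GDNF libraries. In CT it had 1 count in replicate 1 and 2 counts in replicate 4. Both groups lie at or under the 3-count limit, so no fold change is given. TBR1, a marker of cortical glutamatergic neurons, was sparse as well and averaged 0.174 CPM in GDNF and 0.140 CPM in CT.

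NHLH1 and NHLH2, a pair of closely related bHLH factors of young postmitotic neurons, were both present but varied in different libraries. NHLH1 (ENSG00000171786, chromosome 1, 160367067 to 160372848) stood at 4.28, 3.43, 3.90 and 3.11 CPM in GDNF libraries, against 2.69, 6.65, 5.19 and 3.72 CPM in CT libraries. All 4 GDNF values lay inside the range of CT, whose replicates 2 and 1 were the highest and the lowest of the 8. The means were 3.68 ± 0.516 CPM in GDNF and 4.56 ± 1.73 CPM in CT, with a log2 fold change of -0.31 (-0.88 to 0.26, edgeR adjusted p = 0.9999). The size of this difference rested on single CT libraries: it was -0.06 without CT replicate 2 and -0.49 without CT replicate 1, and it did not pass in either case. With GC and length offsets it was -0.16, and with limma-voom it was 0.15.

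NHLH2 (ENSG00000177551, chromosome 1, 115836377 to 115843917), which is also known from hypothalamic neurons, stood at 15.6, 15.5, 16.3 and 15.5 CPM in GDNF libraries, against 15.7, 12.01, 15.2 and 17.6 CPM in CT libraries. The GDNF libraries were nearly level and CT replicate 2 was the lowest of the 8. The log2 fold change was 0.05 (-0.26 to 0.37, edgeR adjusted p = 0.9999), from means of 15.7 ± 0.368 CPM in GDNF and 15.1 ± 2.32 CPM in CT. Without CT replicate 2 it was -0.04. Per kb of exon, the level of NHLH2 was 1.23 to 1.70 times that of NHLH1 in GDNF libraries and 0.613 to 1.98 times in CT libraries, with the lowest ratio in CT replicate 2. In that library NHLH1 lay 0.77 above and NHLH2 0.39 below the mean of the other 7 libraries (log2). The transcripts differ in base composition, at 55.9% GC for NHLH1 and 47.0% for NHLH2, and the part of this in the result was not tested.

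INSM1, a zinc finger repressor of newborn neurons and neuroendocrine cells, was the only one of the 4 factors of at least 1 CPM whose groups did not overlap. INSM1 (ENSG00000173404, chromosome 20, 20368121 to 20370949, a gene of 1 exon) had 535, 489, 517 and 534 counts in GDNF libraries, against 429, 417, 398 and 428 counts in CT libraries. Scaled, these were 15.3, 13.98, 17.4 and 18.1 CPM in GDNF libraries, against 13.6, 13.9, 13.8 and 13.5 CPM in CT libraries. Every GDNF library lay above every CT library, although GDNF replicate 2, at 13.98 CPM, was only just above the highest CT value of 13.87 CPM. With DESeq2 size factors the lowest GDNF value and the highest CT value were 13.99 and 13.89 CPM, and with library totals 14.40 and 13.89 CPM. By the same measure 0.261% of the 16094 genes that averaged 1 CPM or more were separated with GDNF higher, 0.491% with GDNF lower and 0.752% in either direction.

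The means of INSM1 were 16.2 ± 1.88 CPM in GDNF and 13.7 ± 0.174 CPM in CT, a log2 fold change of 0.24 (SE 0.13, 95% confidence interval -0.05 to 0.53). It did not pass (edgeR adjusted p = 0.9999). The interval corresponds to 0.968-fold to 1.44-fold. The coefficient of variation was 11.6% in GDNF and 1.27% in CT, where counting error alone at this depth gives about 4.62%. Leaving out any 1 library gave log2 fold changes of 0.19 to 0.31. The interval just excluded 0 without CT replicate 2 (0.0005 to 0.51) and included it otherwise, and edgeR adjusted p-values ran from 0.925 to 0.99999. INSM1 is the most GC-rich of the 9 at 63.1%, and its 2 highest values came from GDNF replicates 4 and 3. Of these libraries, replicate 4 deviated with GC content (Spearman correlation 0.732) and replicate 3 did not (-0.00491). With GC and length offsets the log2 fold change was 0.31 (0.04 to 0.59, edgeR adjusted p = 0.9997), and with limma-voom it was 0.16 (-0.04 to 0.37). Progenitor and cycling markers, set beside INSM1 because it is also found in dividing neuronal precursors, were given as a list, of which no gene passed the test. They summed to 446 to 607 CPM in GDNF libraries and 466 to 568 CPM in CT libraries. Most of these sums came from VIM and NES, which averaged 310 and 188 CPM over the 8 libraries. SOX1, PAX6 and HES5 failed the low-count filter. SOX2 of progenitors was at 6.28 ± 0.346 CPM in GDNF and 7.55 ± 0.535 CPM in CT, again with groups that did not overlap but in the other direction (log2 fold change -0.27, edgeR adjusted p = 0.9999). TOP2A of dividing cells was at 1.75 ± 0.42 CPM in GDNF and 0.967 ± 0.546 CPM in CT, with overlapping groups. Its log2 fold change was 0.85 (0.04 to 1.67, edgeR unadjusted p = 0.041, adjusted p = 0.9999). An unadjusted p under 0.05 was reached by 0.88% of all genes tested. MKI67, also of dividing cells, was at 1.19 CPM in GDNF and 1.05 CPM in CT. SOX2, TOP2A and MKI67 were chosen after their values were seen, and their part in the result for INSM1 was not tested.

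**Figure D2:**
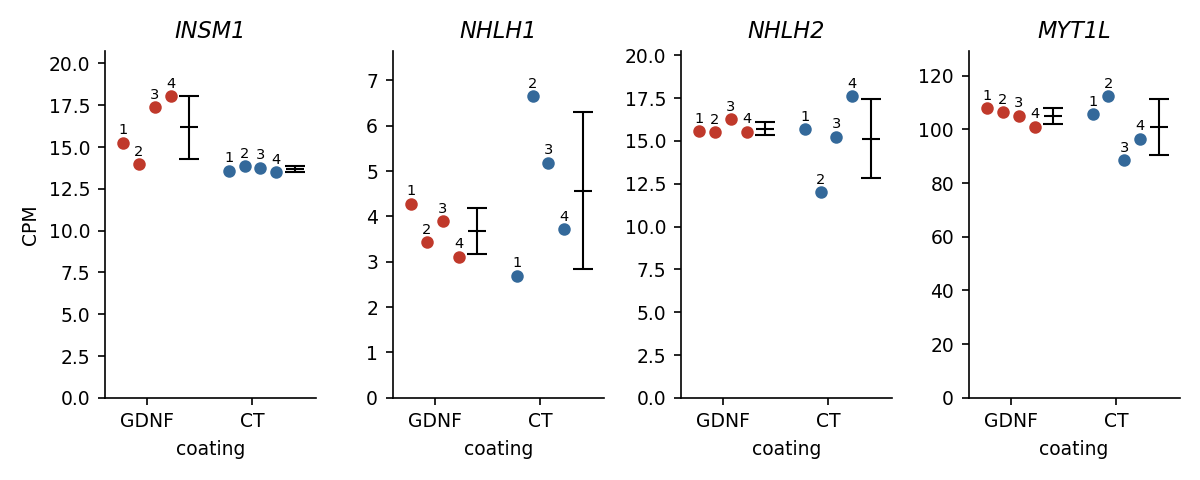
CPM of INSM1, NHLH1, NHLH2 and MYT1L in each library, labelled with its replicate number, GDNF left of CT; the bar beside each group is the mean ± SD (n = 4), and each axis starts at 0. INSM1 is at 13.98 CPM or above in GDNF and at 13.87 CPM or below in CT, while for the other 3 genes the CT libraries spread more widely than the GDNF libraries.

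MYT1L, a zinc finger factor that represses genes of other cell lineages in neurons and helps to turn fibroblasts into neurons, was well expressed and steady. MYT1L (ENSG00000186487, chromosome 2, 1789113 to 2331348) stood at 107.9, 106.5, 105.1 and 101.0 CPM in GDNF libraries, against 105.6, 112.4, 88.4 and 96.6 CPM in CT libraries. The GDNF libraries lay within the CT range, and CT replicate 2 was the highest and CT replicate 3 the lowest of the 8. The log2 fold change was 0.06 (-0.20 to 0.32, edgeR adjusted p = 0.9999). Without CT replicate 2 it was 0.12 and without CT replicate 3 0.0036. The gene spans 542552 bases in the annotation used here and shares 5.02% of its exon length with MYT1L-AS1 and AC093390.2 on the opposite strand, which had 158 and 294 counts against 25952 for MYT1L.

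**Figure D3:**
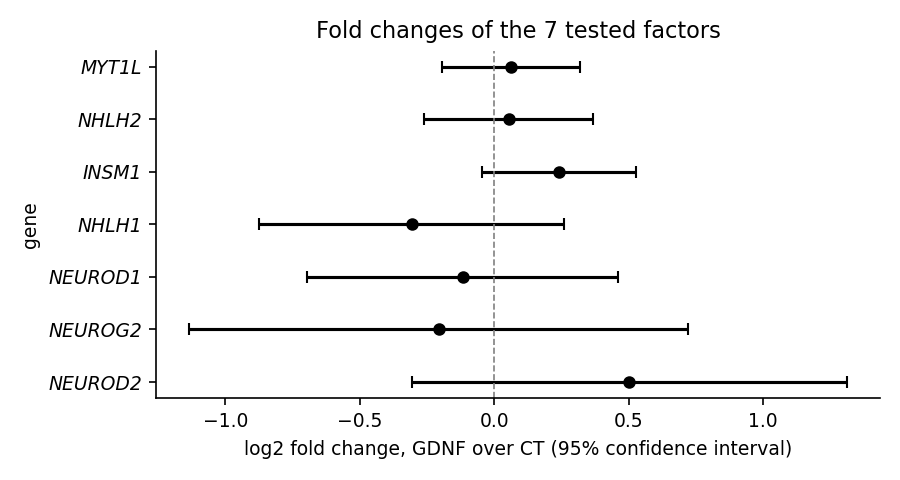
Log2 fold change of GDNF over CT with its 95% confidence interval for the 7 tested factors, ordered by level from the most abundant at the top. Every interval includes 0; the narrowest, for MYT1L, runs from -0.20 to 0.32 and the widest, for NEUROG2, from -1.13 to 0.72.

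Per length, the order of the factors depended on which length was used. Over the union of annotated exons, INSM1 led at 5.27 ± 0.642 CPM per kb (SD over 8 libraries), followed by MYT1L at 2.93 ± 0.213, NHLH2 at 2.05 ± 0.209 and NHLH1 at 1.61 ± 0.496 CPM per kb. Over the longest annotated transcript, a length chosen after the data were seen, MYT1L led at 14.1 CPM per kb, because its union of exons is 35151 bases and its longest transcript 7322 bases. INSM1 was at 5.27 CPM per kb on either length, and its libraries did not overlap with those of MYT1L or NHLH2. The ranges of NHLH2 and NHLH1 overlapped, as did those of NEUROG2 (0.277 ± 0.117 CPM per kb) and NEUROD1 (0.267 ± 0.0523 CPM per kb). Over the longest transcript NEUROD1 was above NEUROG2, at 0.310 and 0.277 CPM per kb, again with overlapping ranges. NEUROD2 was lower, at 0.0598 ± 0.0204 CPM per kb. Per kb of the union of exons, INSM1 exceeded 63.2% of the 19974 genes that passed the filter and had an annotated length. On this length MYT1L exceeded 50.4%, NHLH2 43.3%, NHLH1 38.7% and NEUROD2 0.706%.

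Within groups, the coefficient of variation was 7.47% for MYT1L, 8.93% for INSM1 and 10.8% for NHLH2, where counting error alone gives 1.76%, 4.62% and 4.54%. It was 31.0% for NHLH1 against 8.81% from counting, and 44.8% for NEUROG2 against 22.5%. For NEUROD1 (20.6% against 18.9%) the spread was close to counting error. NEUROD2 had the same 31.0% as NHLH1, but there it was close to counting error. The factors showed no common rank of libraries. Over the 21 pairs of the 7 factors, Pearson correlations of log2(CPM + 0.5) across the 8 libraries ran from -0.691 (NHLH1 and NHLH2) to 0.517 (NEUROG2 and NHLH1), with 10 positive and 11 negative. Without CT replicate 2 the correlation of NHLH1 and NHLH2 was -0.0871, and 5 of the 21 pairs changed sign. These correlations are descriptions, since the libraries share depth and base composition effects.

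**Figure D4:**
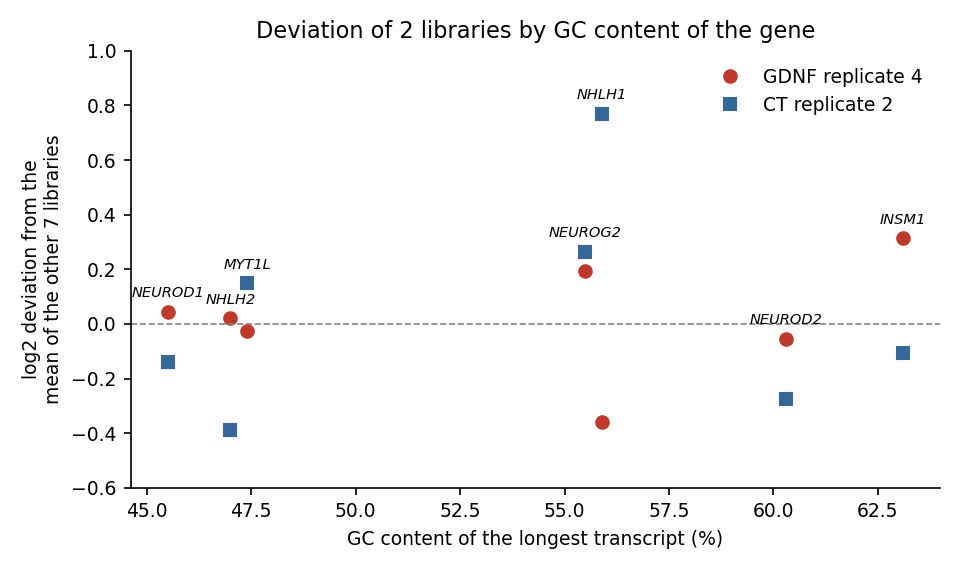
Log2 deviation of each tested factor from the mean of the other 7 libraries in GDNF replicate 4 (circles) and CT replicate 2 (squares), against the GC content of its longest transcript in percent. In CT replicate 2 NHLH1 lies 0.77 above and NHLH2 0.39 below the other libraries, while INSM1, at 63.1% GC, lies 0.11 below; in GDNF replicate 4 INSM1 lies 0.31 above.

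Genes whose levels followed a factor most closely across the 8 libraries were sought for the 3 factors of at least 5 CPM, among 11815 other genes of that level. For MYT1L they were ESYT2 (Pearson r = 0.955) and KIAA1549 (0.953), and both remained among the 20 closest without CT replicate 2 (0.941 each over 7 libraries). For NHLH2 they were CMTM6 (0.976) and AL365440.1 (0.972), also among the 20 closest without CT replicate 2, at 0.872 and 0.841. For INSM1 they were RHOH (0.886) and BTBD11 (0.875). Without CT replicate 2 their correlations were not lower, at 0.899 and 0.917. Other genes then came closer, and they ranked 152 and 96, outside the 20 closest.

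The dimer partners of the bHLH factors and the proteins that block them were expressed on both coatings, and none passed the test. All 7 genes of this list were tested: 3 were higher in GDNF, 4 were lower, and the test called none; the median log2 fold change was -0.0095, beside -0.0098 over all genes tested. Over all genes 9515 were higher and 10464 lower, counting 19979 genes with a unique symbol or on a list. Among E proteins, TCF3 averaged 73.9 ± 7.22 CPM in GDNF and 78.0 ± 21.2 CPM in CT, and TCF12 72.6 ± 4.81 CPM in GDNF and 72.2 ± 13.3 CPM in CT. ID4, an inhibitor that binds E proteins, averaged 88.1 ± 9.14 CPM in GDNF and 86.7 ± 9.83 CPM in CT. ID1, another such inhibitor, was at 6.61 ± 0.764 CPM in GDNF and 7.74 ± 2.003 CPM in CT. Its p was the smallest of this list but not small (log2 fold change -0.23, edgeR unadjusted p = 0.252, adjusted p = 0.9999). Without CT replicate 2, where ID1 reached 10.7 CPM, its log2 fold change was -0.03.

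Among the HES and HEY genes and REST, a list made mostly of repressors, none passed the test either. Of the 9 genes on this list 5 were tested, 3 higher and 2 lower, with a median log2 fold change of 0.0012. HES6, which in mouse favours neuronal differentiation, averaged 99.4 ± 20.9 CPM in GDNF and 109.5 ± 27.9 CPM in CT. HEY1, a Notch target, averaged 35.4 ± 2.28 CPM in GDNF and 35.1 ± 1.95 CPM in CT, and HES4 31.7 ± 9.27 CPM in GDNF and 31.6 ± 8.23 CPM in CT. REST, which silences neuronal genes outside neurons, was at 3.73 ± 0.737 CPM in GDNF and 3.27 ± 0.915 CPM in CT. Its p was the smallest of this list but not small (log2 fold change 0.19, edgeR unadjusted p = 0.421, adjusted p = 0.9999). The median of the list was -0.14 without GDNF replicate 4 and -0.11 without CT replicate 1.

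Of 16 other neural bHLH genes and zinc finger relatives 5 were tested, 2 higher and 3 lower, with a median of -0.13 and none past the test. MYT1, the relative of MYT1L, averaged 216.0 ± 11.7 CPM in GDNF and 237.0 ± 49.4 CPM in CT. The gap came from CT replicate 2, at 310.8 CPM, and without that library its log2 fold change was 0.03 and the list median 0.03. ST18, the third gene of the MYT1 family, was at 4.59 ± 0.495 CPM in GDNF and 4.25 ± 0.759 CPM in CT. TAL2, a bHLH factor of midbrain GABAergic neurons in mouse, was at 0.754 ± 0.174 CPM in GDNF and 0.539 ± 0.299 CPM in CT. Its p was the smallest of this list but not small (log2 fold change 0.48, edgeR unadjusted p = 0.232, adjusted p = 0.9999). INSM2, NEUROG3, NEUROD4, ATOH1, OLIG1, OLIG2, BHLHE22, BHLHE23, PTF1A and TAL1 failed the filter, with 2 to 38 counts over the 8 libraries, and OLIG3 had none.

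Known targets of proneural factors were well represented, with 12 of 14 tested, 2 higher and 10 lower in GDNF, a median of -0.07 and none past the test. Without CT replicate 2 the split was 6 higher and 6 lower, with a median of -0.0061. Doublecortin (DCX), a microtubule protein of migrating young neurons, averaged 1829 ± 180 CPM in GDNF and 1706 ± 312 CPM in CT (log2 fold change 0.10). RND3, which controls neuronal migration, averaged 352 ± 34.8 CPM in GDNF and 363 ± 104 CPM in CT, and EBF3, a factor that follows the proneural genes, 220 ± 12.1 CPM in GDNF and 215 ± 13.3 CPM in CT. EBF3 has 6.27% of its exonic bases antisense to another gene. BTG2, which slows the cell cycle in neurogenic progenitors, was at 28.5 ± 1.45 CPM in GDNF and 31.98 ± 2.83 CPM in CT. Its p was the smallest of this list but not small (log2 fold change -0.17, edgeR unadjusted p = 0.195, adjusted p = 0.9999). EOMES and TBR1, targets in cortical neurons, failed the filter with 16 and 39 counts in all.

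**Figure D5:**
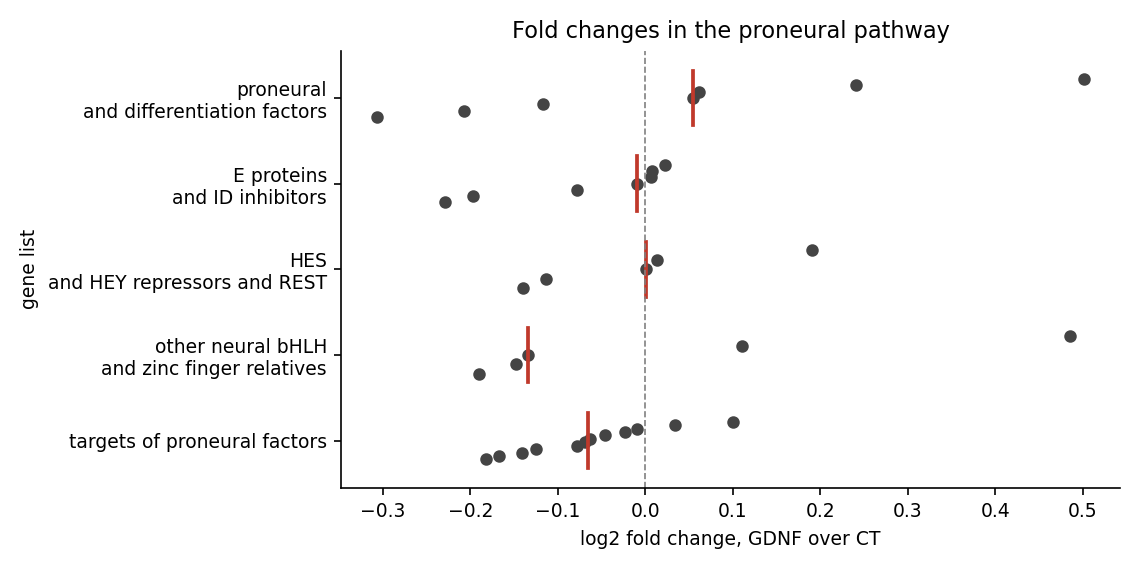
Log2 fold change of GDNF over CT for each tested gene (points) of the 9 factors and of 4 lists of pathway genes, with the list median as a red line. No gene passed the test; the medians lie between -0.13 and 0.05.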

How the data were processed

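PolyA RNA from TRIzol extracts was sequenced after Illumina TruSeq mRNA preparation, per the labels' protocols. The deposited values are raw counts per Ensembl gene, 1 column per library, not normalized, per the file headers. FastQC, cutadapt, STAR, HTSeq and DESeq2 with GRCh38 are named in the submitters' processing notes; the sources used here give no version, annotation release or strand setting. Of 58275 genes matched to GENCODE 29, 98.6% had identical positions; that annotation gave exon length, GC content and overlaps.

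Genes were kept by filterByExpr (minimum count 10, total 15), leaving 19999. GDNF was compared with CT in edgeR 4.0.16 (R 4.3.3) by the quasi-likelihood test with TMM, robust dispersions and group as the only term, two-sided, with Benjamini-Hochberg adjustment over all genes at 0.05. The test was tested on simulated data. Levels are CPM with TMM-scaled totals, as mean ± SD. Intervals are at 95%. Alternatives were other scalings and filters, a replicate block, DESeq2 1.42.0, limma 3.58.1 (voom with quality weights), GC and length offsets, and leaving out each library. Deviations of same-numbered libraries had no common sign (Pearson 0.712, -0.642, 0.323 and -0.826 for numbers 1 to 4). Libraries of unlike number reached 0.832 (GDNF replicate 4 with CT replicate 2), so the numbers were not taken as pairs. Because the deviations of most libraries followed GC content, this check cannot show whether the numbers mark pairs.

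All 9 factors were named; from each pathway list the 3 most abundant genes and the one with the smallest p. The factors, lists and the rule were chosen with earlier results of these data known. No protein sequences were used here. Some genes of the lists are not reported here by name.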

Additional observations from a re-analysis of the deposited data

Results flagged for a closer look

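Among 46 groups of 4 libraries (the factors and the pathway genes named by rule), 3 held a library far from the other 3, where chance flags about 1 in 20 groups, or 2.3. NHLH2 in GDNF replicate 3 was at 16.3 CPM while the remaining GDNF values lay between 15.5 and 15.6 CPM, a small step in a group that was otherwise almost level. ID1 reached 10.7 CPM in CT replicate 2, while the remaining CT values lay between 6.33 and 6.96 CPM. MYT1 reached 311 CPM in the same library, with 206 to 217 CPM in the remaining CT libraries.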

How the results depend on the processing

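No setting called any gene or any of the factors: edgeR with each scaling, filter, the replicate block, the offsets or any library left out, DESeq2 and limma-voom all gave 0 calls. With the replicate block, which the libraries' deviations do not back as pairs, 0 genes and 0 factors passed, and 112 genes had an unadjusted p under 0.05, against 176 without it. The directions of INSM1, MYT1L and NEUROD2 held under every setting run. With limma-voom the log2 fold change turned to 0.24 for NEUROG2, 0.15 for NHLH1 and -0.061 for NHLH2, and the cause was not tested. Leaving out 1 library gave ranges of -0.45 to 0.10 for NEUROG2 (positive without CT replicate 3), -0.245 to 0.0402 for NEUROD1 (positive without CT replicate 1) and -0.0367 to 0.135 for NHLH2 (negative without CT replicate 2). NEUROD1, NEUROG2 and NEUROD2 failed the stricter filter and have no value there. Other scalings moved no mean CPM by more than 1 SD. NEUROD1, NEUROD2 and NEUROG2 rest on 7 to 38 counts per library; counting error is close to the whole spread of NEUROD1 and NEUROD2, while the spread of NEUROG2 (44.8%) exceeds its counting error (22.5%).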
